A study of Synthetic plasmid and Mus musculus with 4 samples.

Results

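R392 is the capture target whose fragments gave the most reporter RNA in mouse retina, a 300 bp window at chr11:67495426-67495725 (mm9). All constructs that the deposited tables assign to this target were taken, 50 of the 45670 in the library, and the target itself was selected on its retina RNA counts, the highest of 3483 targets. Each construct is a plasmid with 1 captured fragment of C57BL/6J genomic DNA and 1 transcribed barcode, so barcode counts in RNA against those in DNA report what the fragment drove. The retina group is CD-1 retina electroporated with the plasmids ex vivo at P0 and then cultured (8 days). Each of its 3 biological replicates pooled 5 retinas. The cortex group is CD-1 cerebral cortex injected in vivo with an adeno-associated virus (AAV) carrying the library at 4 to 6 weeks of age, with GFP-positive tissue dissected 4 to 5 weeks later and 1 animal in each of 3 replicates. Both groups carry the same library, there is no group without it, and every replicate has an RNA and a DNA library. Tissue, delivery, age and sequencing lane change together between the groups, so their parts in a difference cannot be told apart.

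Cis-regulatory elements are stretches of DNA bound by transcription factors that set where and how strongly a gene is transcribed, and in active tissue they lie in open chromatin that DNase can cut. From knowledge of the study, the letter R marks targets taken from DNase hypersensitive sites of retina. Plasmids electroporated into newborn mouse retina are taken up mainly by dividing progenitors, most of whose daughters at that age become rod photoreceptors, and photoreceptor genes are known to be driven by homeodomain factors such as CRX and OTX2 together with NRL. Sonicated fragments that start and end at different points around 1 element work as a deletion series, since each lacks different bases. Gene annotation and genomic sequence of the window were not used here.

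The fragments are called P1 to P25 on the plus strand and M1 to M25 on the minus strand, in order of their start. Strand is that of the deposited table, and its relation to the direction of reporter transcription is not given in the sources used here. The barcode is the part of a construct that was counted, and those of the 5 most and 5 least active constructs in retina, by mean log2 activity, follow in lower case, because the position results turn on these fragments.
P3: aaatggcgttcctgt
P8: gccggcggtgtgttc
P6: ccatacgtcctaccg
P1: tacttggacaattgc
M20: cccgtacaccctaat
M2: cgctgtcaagggatg
M23: catcgcgcgcatagg
M22: aagtgttttgagcat
P25: tcacatcgttgccaa
M25: aaccatcctccgatg
P3 holds chr11:67495114-67495686, P8 chr11:67495244-67495661, P6 chr11:67495188-67495595, P1 chr11:67495103-67495604 and M20 chr11:67495509-67496043. M2 holds chr11:67495176-67495653, M23 chr11:67495564-67495898, M22 chr11:67495546-67496017, P25 chr11:67495576-67496045 and M25 chr11:67495671-67496115. The 4 fragments that start farthest right among these 10 are M25, P25, M23 and M22, and they are also the 4 lowest by mean log2 activity. The GC content of the barcode showed almost no rank relation with activity over the 28 constructs with enough DNA (Spearman's rho -0.05, a description over overlapping fragments).

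The 50 fragments were 335 to 659 bp long, with a median of 481 bp, and together tiled 1014 bp from 67495103 to 67496116. No 2 of them had the same ends and strand. The whole window lay inside 21 fragments, and the other 29 held part of it, down to 55 bases. Positions below count from 1 at the left end of the window, so that negative values and 0 lie left of it and values above 300 lie right of it. Total counts lay between 7025820 and 10411511 in retina RNA libraries and between 6501061 and 12147398 in retina DNA libraries. In cortex they lay between 4000439 and 9674859 for RNA and between 3999412 and 10769648 for DNA. Constructs with at least 10 counts in each DNA library of a tissue were used for ratios, which left 28 of the 50 in retina and 36 in cortex, and the 28 were all among the 36. The construct nearest the limit inside it was P1, with 13 as its lowest retina DNA count, and the nearest outside was P20 with 9.

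In retina the 50 constructs held 11.3%, 10.4% and 10.0% of all RNA counts in replicates 1, 2 and 3, but 0.183%, 0.193% and 0.175% of the DNA counts. The RNA share was thus 57.6 ± 4.17 times the DNA share (SD, n = 3). The target gave 2580314 RNA counts in all, against 1409415 for the target with the next highest number. M12 (chr11:67495369-67495901), which spans the window, had more retina RNA counts than any other construct of the library, 428837 from 9220 DNA counts. These values chose the target and are given as a description.

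Activity is written below as the fraction of a library's RNA counts held by a construct over its fraction of the DNA counts, so that 1 means equal shares. Mean activity was above 1 for 25 of the 28 constructs in retina, where 8.23% of all 36005 constructs with enough DNA were above 1. RNA was seen in all 3 replicates for 24 of the 28, against 5.99% of all constructs and 22.1% of those of R targets. In the edgeR quasi-likelihood fit over all retina constructs RNA exceeded DNA for 22 of the 28, with 2.33% of all constructs called. It was below DNA for 2, P25 and M25, with 64.9% of all constructs called, and M2, M19, M22 and M23 passed in neither direction. Since retina RNA chose the target, nothing is read from these counts.

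Activity broke off between fragments that start at neighbouring points in the left part of the window. All 24 constructs that started at position 90 or left of it had RNA in every replicate, with mean activities from 11.2 to 381 and a median of 66.7. Of the 4 that started farther right, 3 gave 3 or fewer RNA counts in all libraries together, and the fourth gave RNA in 2 of 3 replicates. Pooled over their constructs, the left starters had activities of 66.5, 55.2 and 60.2 in replicates 1, 2 and 3 and the right starters 2.42, 0.00838 and 1.14. The pooled values of the 2 groups did not overlap, and all RNA of the right starters but 3 counts came from 1 construct, M23. By itself M23 lay among the left starters in replicate 1. It did so in replicate 3 too, where its 9.87 was above the 5.31 of M19. Position 90 was chosen after the values were seen, so this split is a description and was not tested.

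The fragments near that break can be read in order of their start. M20 started at position 84 and had activities of 157, 283 and 65.2 in the 3 replicates. M21 (chr11:67495515-67495957), which starts at position 90 and so lacks the first 89 bases of the window, had 24.8, 55.0 and 24.9. Both were far above 1 in every replicate. M22 starts 31 bases farther right, at position 121, and its 752 DNA counts came with 0, 3 and 0 RNA counts. Its pooled activity was 0.00482, with a 95% exact Poisson interval of 0.000993 to 0.0141. M21 and M22 share strand and most of their sequence, and positions 90 to 120 are in M21 and not in M22. The pair also differs in barcode and at the right end, where M22 runs to position 592 and M21 to 532.

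Farther right, P25 and M25 were silent and M23 was not. Having no RNA is common in retina: it held for 64.3% of all constructs with enough DNA and for 43.4% of those of R targets. M23 started at position 139 and gave 77.8, 0 and 9.87, from 2113, 0 and 1154 RNA counts over 46, 82 and 123 DNA counts. Its replicates disagree more than those of any left starter, from none to above the median of the left starters. P25 started at position 151 and had no RNA count in any replicate over 241, 148 and 310 DNA counts. M25 started at position 246, kept 55 bases of the window and had no RNA count over 851, 67 and 259 DNA counts. With a floor of 3 RNA counts over the 3 libraries, the activity of P25 was at most 0.00518 and that of M25 at most 0.00308. They were at least 2162-fold and at least 3641-fold lower than M2, the least active of the 24 left starters. Amplified barcode reads are not independent molecules, so floors and intervals cover counting error only.

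Fragments lacking the right end of the window showed no such break, but a wide range. P6 ends at position 170 and so lacks the last 130 bases of the window, and its activities were 157, 203 and 93.4. P1 ends at position 179 and had 85.5, 212 and 163. P8 ends at position 236 and had 156, 109 and 192. These 3 plus fragments reach far to the left and were among the 5 most active. M2 ends at position 228 and had 18.1, 2.86 and 12.6, the lowest mean of the left starters, so constructs lacking the right end held both extremes. The 9 constructs that lacked bases at the right end of the window had a pooled activity of 62.3 ± 2.86, and the 9 that spanned it had 54.5 ± 8.34 (SD, n = 3). The stretch held by all 24 left starters ran over 81 bases, from chr11:67495515-67495595, which are positions 90 to 170. It is set by M21 at its left and by P6 at its right, and 42 of the 50 constructs hold all of it.

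Bins of 20 bp across the window compare constructs that cover a stretch with those that lack it. For the bin from 101 to 120, the 24 constructs that covered it had a median activity of 66.7, and the 4 that did not had 0.0118. For the bin from 141 to 160, 26 constructs covered it with a median of 60.3, and the 2 that did not cover it had no RNA. For the bin from 1 to 20, the 18 that covered it had a pooled activity of 57.9 ± 5.93 and the 10 that did not 57.7 ± 7.22 (SD, n = 3), so the replicates overlapped. The medians of single constructs lay apart, at 60.3 for the 18 and 32.1 for the 10, which include the 4 right starters. For the bin from 41 to 60, the 21 that covered it had 67.1, 54.8 and 61.1 in replicates 1, 2 and 3, and the 7 that did not had 15.8, 26.9 and 11.3. Those 7 are the 4 right starters with M19, M20 and M21, so that bin already holds the silent fragments. For the bin from 161 to 180, the 3 constructs that lacked bases were P1, P6 and M25, with a median of 151 beside 54.5 for the other 25. The pooled activities of these 3 were 19.2, 77.1 and 43.4 in replicates 1, 2 and 3, beside 64.2, 53.5 and 57.1 for the 25. By that measure the 3 were lower in replicates 1 and 3 and higher in replicate 2. For the last bin, from 281 to 300, pooled activity was 54.8 ± 5.45 over the 19 constructs that covered it and 62.3 ± 2.86 over the other 9. The lowest pooled values without a bin were those of the bins from 101 to 160. Fragments enter many bins together, so the bins are not independent.

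The 22 constructs below the DNA limit were set aside for ratios, but their RNA can be described. Of the 18 that started at position 90 or left of it, 17 had RNA, 13 of them in all 3 replicates. Their retina RNA sums ran from 0 to 14576 with a median of 2076, over DNA sums with a median of 33.5. Together they gave 62.9 RNA counts for each DNA count, beside 50.3 for the 24 above the limit. Low DNA, the denominator here, is what set the 18 aside, so these ratios are not like for like. P9 (chr11:67495300-67495801), which spans the window, had the highest sum, 14576 RNA counts over 96 DNA counts. P4, which runs from position -298 to 179, had neither RNA nor DNA counts in retina. P7 spans the window and had 0, 118 and 0 RNA counts over 88, 4 and 0 DNA counts, so it gave no RNA in the replicate with nearly all of its DNA. P16, which also spans it, had 0, 447 and 0 RNA counts over 0, 4 and 19 DNA counts. P21 started at position 85 and had 2 RNA counts over 5 DNA counts. M9 spans the window and had RNA in replicate 2 only, 671 counts over 2 DNA counts in all. These left starters thus did not give RNA in every replicate, unlike the 24 above the limit. Of the 4 that started farther right, P24 had no RNA over 198 DNA counts and M24 none over 6, P23 had 4 RNA counts over 2, and P22 had 165 in 1 replicate with no DNA count.

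The 24 left starters above the limit still differed from one another, and 2 of them, M2 and M19, were not called above DNA in the fit. The SD of their mean log2 activities was 1.20, while the SD between replicates of 1 construct was 0.69 in the pool. Over these 24 the ranks in replicates 1 and 2 had a Spearman's rho of 0.72, those in 1 and 3 of 0.83 and those in 2 and 3 of 0.62. Their RNA and DNA count sums rose together (rho 0.89), as constructs with more DNA also gave more RNA. Activity had a rho of -0.30 with the DNA sum, 0.33 with fragment length and -0.11 with the number of window bases. These correlations describe 24 overlapping fragments that share libraries, and none of them is a test.

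The most active construct was P3, with activities of 634, 194 and 315. Its DNA counts were only 55, 58 and 65, and its SD of 227 was the largest among the 28. P3 has a near twin on the minus strand in M1 (chr11:67495116-67495687), whose ends differ by 2 and 1 bases. M1 had 72.6, 98.0 and 53.6 over 5109 DNA counts, lower than P3 in each replicate, and log2 activity was higher in P3 by 3.13, 0.99 and 2.55 (SD 1.11). P8 and M5 (chr11:67495256-67495668), on opposite strands with ends within 12 and 7 bases, differed by 1.65 ± 0.57, again with the plus fragment higher in each replicate. In the remaining pair on opposite strands, M8 (chr11:67495304-67495843) was lower than P11 (chr11:67495320-67495847) in 2 replicates and higher in 1, a difference of 0.51 ± 1.95. Pairs on opposite strands were looked up after the values were seen.

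Same-strand fragments with both ends within 20 bp show how far near copies can lie apart. M13 (chr11:67495415-67495931) and M14 (chr11:67495417-67495939) had mean activities of 54.5 and 65.0, and their log2 difference of -0.37 ± 0.65 was within the replicate spread. M5 and M7 (chr11:67495275-67495672) differed by -0.12 ± 0.66, and M5 and M6 (chr11:67495270-67495649) by 0.50 ± 0.71 (SD, n = 3). P10 (chr11:67495311-67495867) was higher than P11 in every replicate, by 1.67 ± 0.60. M19 (chr11:67495505-67495948) was lower than M21 in every replicate, by -1.73 ± 1.29. The difference between P10 and P11, near copies on 1 strand with different barcodes, was as large as that between P8 and M5 on opposite strands.

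Strand was then compared over the whole target, a contrast that the choice of the target did not use. The 7 plus constructs had pooled activities of 115, 58.0 and 96.1 and the 21 minus constructs 59.1, 53.3 and 54.1. The plus value was the higher of the pair in each replicate, but the groups overlapped, since plus replicate 2 lay below minus replicate 1. In a fit over 1259 targets, with strand crossed with RNA or DNA and the library as a block, the plus minus minus difference was a log2 of 0.64 (SE 0.18, edgeR quasi-likelihood test, adjusted p = 0.0847), which did not pass. Such calls were made for 5.8% of targets with plus above minus and for 6.12% with plus below, and the median target lay at -0.24. Without P8, the plus construct with the most RNA, it was 0.11 (edgeR adjusted p = 0.826). Without P25, the silent plus construct, it was 0.97 (edgeR adjusted p = 0.0465), and without all constructs starting right of position 90 it was 0.91 (edgeR adjusted p = 0.0458). Plus constructs also had less DNA, a median sum of 250 counts against 1627 for the minus ones, and the part of DNA depth in the strand difference was not tested.

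Window coverage was compared in the same way. The 9 constructs spanning all 300 bases had pooled activities of 63.4, 46.9 and 53.3, and the 19 covering part of the window had 60.9, 60.8 and 59.8. The groups overlapped, with the spanning constructs higher in replicate 1 only. The difference, spanning minus part-covering, was a log2 of -0.16 (SE 0.12, edgeR, adjusted p = 0.51) in a fit over 1244 targets. The median target lay at -0.17, so R392 was close to it. Of the 1244 targets, 7.15% were called with spanning constructs higher and 10.5% with them lower. Mean activities of single spanning constructs lay between 33.8 and 128, while part-covering ones ran from 0 to 381, so both the silent and the 5 most active constructs covered only part of the window.

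In cortex the same constructs held a much smaller share of the RNA than in retina. With 26200 RNA counts the target ranked 73 of 3483 there. The share of the RNA held by its constructs was 0.141%, 0.183% and 0.113% in replicates 1, 2 and 3, and their share of the DNA 0.180%, 0.175% and 0.162%. The RNA share over the DNA share came to 0.842 ± 0.184 (SD, n = 3), above 1 in replicate 2 only. Over 2108 targets the log2 RNA/DNA of R392 was 0.13 (SE 0.18, edgeR, adjusted p = 0.838), where 2.99% of targets were called higher. The sign depends on the scaling and on replicate 2, since the value was -0.24 with total library size and -0.0075 without replicate 2. In counts simulated with 1 dispersion shared by all targets, 4-fold increases were called for 76% of targets in this fit, a rate not specific to R392.

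Among the 36 constructs with enough DNA in cortex, mean activities ran from 0 to 6.59 with a median of 0.518, beside a median of 0.479 over all 38826 constructs. A mean above 1 was found for 11 of the 36, and for 30.6% of all constructs, and no construct was above 1 in all 3 replicates. RNA was seen in all replicates for 15 and in none for 7, and 32.7% of all constructs had it in all. The edgeR test called 0 of the 36 in either direction after adjustment, where 0.665% of all constructs were called higher and 0.00773% lower. At an unadjusted p under 0.05 in this test, 8 of the 36 were lower and none higher. Of all 38826 constructs, 7294 were under that unadjusted limit, in either direction. In counts simulated with 1 dispersion shared by all constructs, increases up to 256-fold were never called for single constructs. The fit to the real counts called 258 constructs higher, so this simulation does not show how large a rise the test could find. SEs of log2 RNA/DNA among the 36, back-calculated from the F statistic of the test, ran from 0.46 for M12 to 5.16 for M19. DESeq2 called 3 higher and 11 lower, where it called 4.87% and 38.7% of all constructs, and 7 of the 11 had no RNA. Without the replicate block edgeR called 8 lower and none higher, where it called 16.5% and 1.25% of all constructs.

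The 3 constructs with the highest mean log2 activity in cortex were M21, M8 and M12, which are also the 3 that DESeq2 called higher. M21 had cortex activities of 0.518, 3.81 and 3.09, M8 had 2.86, 4.21 and 0.364, and M12 had 1.23, 1.74 and 0.698. Each fell below 1 in 1 replicate. M19 had the highest mean in cortex, 6.59, but from 1 replicate at 19.8 and 0 in the others.

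No break at that position was seen in cortex. The 31 constructs starting at position 90 or left of it had pooled cortex activities of 0.729, 1.02 and 0.743, and the 5 starting farther right had 1.84, 1.58 and 0.119. The right starters were higher in 2 replicates and lower in the third, with 1048 RNA counts from M25 and 454 from M23. The medians of single constructs had the other order, 0.564 for left and 0.234 for right starters. M25, silent in retina, had cortex activities of 2.51, 4.74 and 0, and P25 had 0, 0.536 and 0.0199. Over the 28 constructs measured in both tissues, mean retina activity and mean cortex log2 activity had a Spearman's rho of 0.16, given as a description. Cortex replicates ranked the 36 constructs with a rho of 0.52, 0.23 and 0.07 for the 3 pairs, a weak agreement that limits any reading of single constructs there.

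The DNA of the target was uneven between strands. At least 10 counts in each retina DNA library were found for 7 of 25 plus and 21 of 25 minus constructs, or 28% and 84%, while 78.1% of plus and 79.6% of minus constructs of the whole library passed. The median retina DNA sum was 96 counts for plus and 806 for minus constructs, against 401 and 430 in the library. Cortex DNA had the same order, with medians of 71 and 753 beside 306 and 329, and so had the plasmid reads behind the barcode assignment, with medians of 19 and 47 beside 34 and 36. The 50 DNA sums ranked alike in both tissues (rho 0.98, beside 0.94 over all constructs). P25, which had no RNA in retina, had the most plasmid reads of the 50, 1834, and 699 retina DNA counts.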

How the data were processed

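Per the labels, captured fragments were linked to barcodes by paired-end 250 bp reads, and barcodes were counted from single-end 50 bp reads, with the 6 libraries of a tissue run together. Build mm9 and the tools bedtools 2.22.1, SAMtools 0.1.19, Bowtie2 2.1.0 and FastQC are listed in the submitters' processing notes without roles, and the counting tool is not given in the sources used here. The authors deposited raw barcode counts. For constructs reaching 10 counts in all DNA libraries they also deposited each count as a fraction of its library, RNA over DNA fractions as a ratio, and the log2 of that ratio plus 0.001. The ratios were recomputed from the counts within a relative difference of 5.11e-08. Start positions count from 0 in the deposited tables and from 1 here. The construct table was deposited for 2 plasmid preparations in identical copies and used once.

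R 4.3.3 with edgeR 4.0.16 ran the tests, which were robust quasi-likelihood fits with Benjamini-Hochberg adjustment over all features and a threshold of 0.05. Each SE given with an edgeR value is the absolute log2 over the square root of the F statistic. Counts were scaled by TMM for RNA against DNA, and by library totals alone in the main strand and coverage fits. RNA against DNA had the biological replicate as a block, because per the labels both were extracted from 1 tissue sample. Deviations of paired libraries correlated between -0.044 and 0.018. Targets needed at least 5 constructs. For strand and coverage, a target's counts were summed on each side (at least 2 constructs a side, 300 RNA counts in all), with the 6 libraries as blocks. Those p-values cover the spread between replicates, not between constructs. In counts simulated with 1 dispersion shared by all constructs, 18% of 4-fold and 84% of 16-fold strand differences over 1258 targets were called. Those rates are not specific to R392. DESeq2 1.42.0 was an alternative. Python 3.11.15, numpy 2.4.6, scipy 1.17.1 and pandas 2.3.3 did the rest.

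Members and lists were chosen with earlier results of these data known. Constructs named with full values are the 5 highest and 5 lowest in retina, the 3 highest in cortex, those nearest the DNA limit and near copies with ends within 20 bp. M1, M9, M12, M24, P2, P4, P7, P9, P16, P21 to P24 and pairs on opposite strands were also named after their values were seen. The motif search planned for a genome of build mm9 was not run.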

Additional observations from a re-analysis of the deposited data

Results flagged for a closer look

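RNA appeared in retina for 2 of the 3 R392 constructs that had no DNA count in any retina library, which are outside every ratio. P2 (chr11:67495114-67495654) had 948, 321 and 4 RNA counts, 1273 in all. P22 (chr11:67495532-67496015) had 165, 0 and 0. P2 shares its start with P3 and holds the whole stretch common to the 24 left starters with enough DNA. P22 starts at position 107, between the starts of M21 and M22, where no construct with enough DNA starts. In the whole library, 1098 constructs had no retina DNA count, and 19 of them had more than 3 RNA counts, 15 of these among the 262 of R targets and 4 among the other 836.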

How the results depend on the processing

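The median log2 activity of R392 constructs in retina was 5.73, and 6.10 with at least 1 count in each DNA library; 5 of 6 alternatives moved it by less than the SD of replicates. The difference in median log2 activity between constructs covering positions 121 to 140 and those that did not was 15.98. It was 12.57 with a prior count of 2, 16.14 and 15.77 with at least 1 and 50 DNA counts, and 15.81 to 15.96 without a replicate. Its size is set by the pseudocount, since 2 of the 3 constructs not covering the bin had no RNA. The strand difference passed with at least 1 DNA count (0.60, edgeR adjusted p = 0.0317), in DESeq2 (0.64, adjusted p = 0.0156), without constructs starting right of position 90 (0.91, edgeR adjusted p = 0.0458) and without P25 (0.97); it was 0.47 to 0.90 without a replicate, and adjusted p ran from 0.0156 to 0.826. Without the replicate block it was 0.62 (edgeR adjusted p = 0.0897). The coverage difference stayed below 0 without passing in all 13 alternatives, from -0.31 to -0.05, where the median target of the main fit lay at -0.17. The cortex target value turned to -0.24 with total library size and ran from -0.0075 to 0.25 without a replicate, the lowest without replicate 2, and passed in none of 9 alternatives. Calls of cortex constructs rose from 0 to 14 in DESeq2 and to 8 without the replicate block, all 8 lower. Alternatives that left out P8, P25 or the right starters, or split part-covering constructs by the end they lack, were chosen after seeing the data.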
